A study of Homo sapiens with 1 sample.

Results

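To describe the miR-23/27/24 microRNAs (miRNAs) of a colorectal carcinoma cell line, the 10 mature miRNAs named for the miR-23a/27a/24-2 and miR-23b/27b/24-1 clusters were read, out of 2549 human miRNAs on the array. The rule took them by name and used no signal, and they comprised 5 arms from the 3p side of their hairpins and 5 from the 5p side. RNA came from DLD-1, a human colorectal carcinoma cell line long in use, after transfection of a control siRNA without a target (si-NC), and was read on 1 array. The study asked what depletion of the circular RNA circLONP2 does to miRNAs, and the depleted sample was not analysed here, so there was no comparison between groups and no p-value. Every error below is technical: it is the SD over replicate spots of a probe on this array, or the error that the scanner software gives.

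A miRNA is cut from a hairpin precursor, and the hairpin can give 1 mature miRNA from its 5p arm and 1 from its 3p arm. The mature strand is loaded into an Argonaute protein and pairs with messenger RNAs mainly through its seed, bases 2 to 8 from the 5′ end. The miR-23/27/24 hairpins lie in a pair of paralogous clusters, each transcribed as a single primary transcript. Members are known for roles in many epithelial and vascular cells: miR-23 in glutamine metabolism through glutaminase, miR-27 in lipid metabolism and adipocyte differentiation, and miR-24 in cell cycle control.

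On GRCh38.p14 in RefSeq, the miR-23a/27a/24-2 hairpins lie on the minus strand of chromosome 19, MIR23A at chr19:13836587-13836659, MIR27A at chr19:13836440-13836517 and MIR24-2 at chr19:13836287-13836359. All 3 lie within the span of the long non-coding RNA gene MIR23AHG. The miR-23b/27b/24-1 hairpins lie on the plus strand of chromosome 9, MIR23B at chr9:95085208-95085304, MIR27B at chr9:95085445-95085541 and MIR24-1 at chr9:95086021-95086088, all within the span of the protein-coding gene AOPEP. The first cluster spans 373 bases and the second 881, and the longest stretch between neighbouring hairpins, 479 bases, separates MIR27B from MIR24-1. The array itself was designed on hg19, and its probes were matched to these loci by miRNA name.

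**Figure D1:**
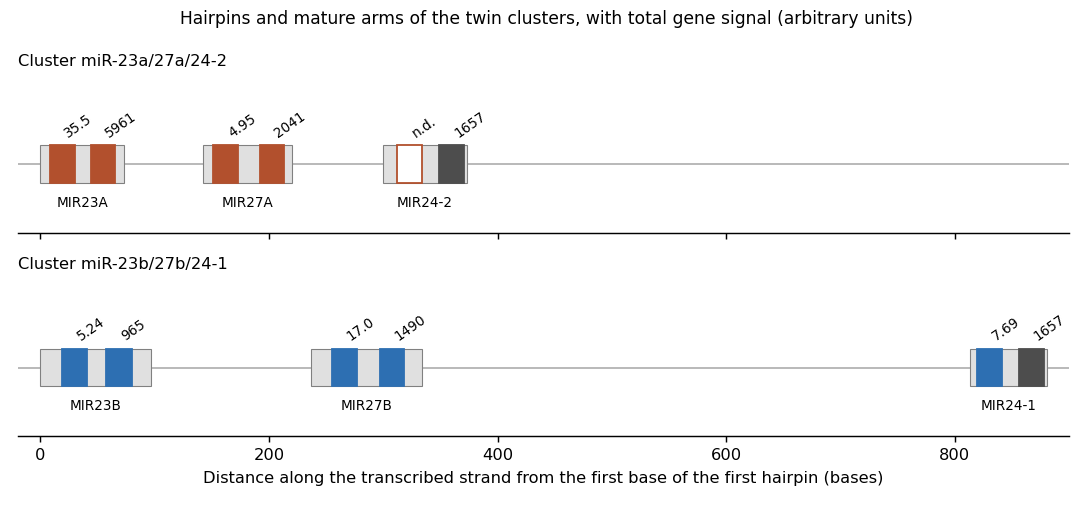
Hairpins (grey boxes) and mature arms (coloured boxes) of both clusters, drawn to scale along the transcribed strand in bases from the first base of the first hairpin, with the total gene signal of each arm in arbitrary units above it. The open box marks miR-24-2-5p, which was not detected (n.d.), and the single signal of miR-24-3p, 1657, is written at both hairpins that encode it.

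The mature sequences show which of these miRNAs are encoded at 1 locus only. They are given 5′ to 3′ from RefSeq, with the seed in capitals, and the first group holds the 3p arms and miR-23c, a relative with the miR-23 seed whose gene is on chromosome X.
hsa-miR-23a-3p: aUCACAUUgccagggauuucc
hsa-miR-23b-3p: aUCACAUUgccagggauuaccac
hsa-miR-23c: aUCACAUUgccagugauuaccc
hsa-miR-27a-3p: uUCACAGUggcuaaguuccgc
hsa-miR-27b-3p: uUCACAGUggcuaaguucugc
hsa-miR-24-3p: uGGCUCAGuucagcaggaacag

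The 3p arms of the paralogues were nearly identical. Over their 21 shared positions, counted from 1 at the 5′ end, miR-23a-3p and miR-23b-3p differed by U19A alone, and miR-23b-3p ran on further at its 3′ end. Likewise miR-27a-3p and miR-27b-3p differed by C19U alone over 21 bases. The sequence of miR-24-3p is the same from MIR24-1 and MIR24-2, so its signal cannot be assigned to a cluster. From miR-23a-3p, miR-23c differed by G14U and U19A.

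The 5p arms had diverged more, and they are printed because they tell the clusters apart. The first 5 are those read here, and hsa-miR-23b-5p is the remaining arm of the clusters, on the array but not among the 10.
hsa-miR-23a-5p: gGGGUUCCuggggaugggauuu
hsa-miR-27a-5p: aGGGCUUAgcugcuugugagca
hsa-miR-27b-5p: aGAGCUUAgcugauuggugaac
hsa-miR-24-1-5p: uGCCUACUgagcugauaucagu
hsa-miR-24-2-5p: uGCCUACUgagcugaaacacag
hsa-miR-23b-5p: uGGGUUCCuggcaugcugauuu

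The 5p arms of the miR-24 hairpins shared their seed and their first 15 bases, and differed at 6 of the 22 positions, all from position 16 on. The 5p arms of the miR-27 hairpins did not share a seed. The 5p arms of the miR-23 hairpins shared a seed and differed at 7 of 22 positions. GC content ran from 47.6% to 54.5% over the 3p arms and from 45.5% to 59.1% over the 5 5p arms, around a median of 52.2% for the 2248 miRNAs on the array that had a sequence.

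As a check of the labelled cell type, all 8 colon epithelial markers on the list used here (among them miR-192-5p and miR-200c-3p) were detected, with total gene signals that summed to 30309. Of 15 markers of blood, stroma, vessel, muscle, liver and neural tissue 5 were detected. They were 3 of the blood list (summed signal 742), miR-126-3p of the stroma and vessel list (123) and miR-9-5p of the liver and neural list (22.1). Most of the blood sum came from miR-142-3p. Its signal was above that of the colon marker miR-194-5p and below those of all other colon markers listed. Of all miRNAs on the array 44.4% were called detected, so 5 of 15 by itself says little about cell type.

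Next, the array was asked which members gave a measurable signal. The scanner software called 9 of the 10 detected, all 5 3p arms and 4 of the 5 5p arms, where 44.4% of all miRNAs on the array were called. The exception was miR-24-2-5p. In 6 members every spot was well above background, namely the 5 3p arms and miR-23a-5p, against 25.2% of all miRNAs. By hairpin, both arms were detected in 5 of 6, with miR-23b-5p counted for MIR23B and miR-24-3p for MIR24-1 and MIR24-2 alike. The signal of miR-24-3p cannot be assigned to either, so a 3p product of MIR24-1 itself was not shown. The share over all 758 hairpins with both arms on the array was 27.8%. With 1 array these shares are descriptions and carry no test.

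The 3p arms were bright. Their median total gene signal, the sum that the software forms over the probes of a miRNA, was 1657 in arbitrary units, and that of the 4 detected 5p arms was 12.3. The median over all 1133 detected miRNAs was 12.5. Each miRNA is read by probes of its own that bind with their own strength, so signals of different miRNAs are given side by side and are not relative amounts.

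The signal of miR-23a-3p, from the chromosome 19 cluster, was the highest of the members. Its first probe gave spot signals from 12572 to 14225 (median 12989, 10 spots) and its second from 18694 to 20329 (median 19455, 10 spots). The spots of the probes did not overlap, and the total gene signal was 5961 ± 429 (error from the scanner software). No member spot was saturated, and the brightest of these reached 2.61% of the saturation value. Its paralogue miR-23b-3p gave 3293 to 3506 (median 3351, 10 spots) on its first probe and 1706 to 2023 (median 1900, 10 spots) on its second. The total gene signal of miR-23b-3p was 965 ± 70.9.

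For miR-27a-3p the spots ran from 4569 to 5170 (median 4722, 10 spots) on the first probe and from 6135 to 6751 (median 6360, 10 spots) on the second, with a total gene signal of 2041 ± 146. For miR-27b-3p they ran from 2719 to 2798 (median 2756, 9 spots, 1 outlier left out) and from 5011 to 5691 (median 5476, 10 spots), with a total of 1490 ± 111. In both pairs of paralogues, the arm encoded on chromosome 19 had the higher total gene signal and the arm encoded on chromosome 9 the lower. For miR-27 that order depended on the probe, since the mean of the brighter miR-27b-3p probe, 5397, lay between those of the miR-27a-3p probes, 4768 and 6391.

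For miR-24-3p, the arm that both clusters encode, the spots ran from 4269 to 4557 (median 4424, 10 spots) and from 4422 to 4869 (median 4646, 10 spots). It was the 3p arm whose probes overlapped, and its total gene signal was 1657 ± 117. In order of total gene signal the 3p arms read miR-23a-3p, miR-27a-3p, miR-24-3p, miR-27b-3p and miR-23b-3p. Neighbours in that order were 8.64, 2.05, 1.03 and 3.99 combined errors apart, so the gap between miR-24-3p and miR-27b-3p was about the size of its error. In each 3p arm that software error was 7.08% to 7.44% of the signal, so these gaps mostly restate the ratios of the signals. They do not take in how strongly each probe binds.

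**Figure D2:**
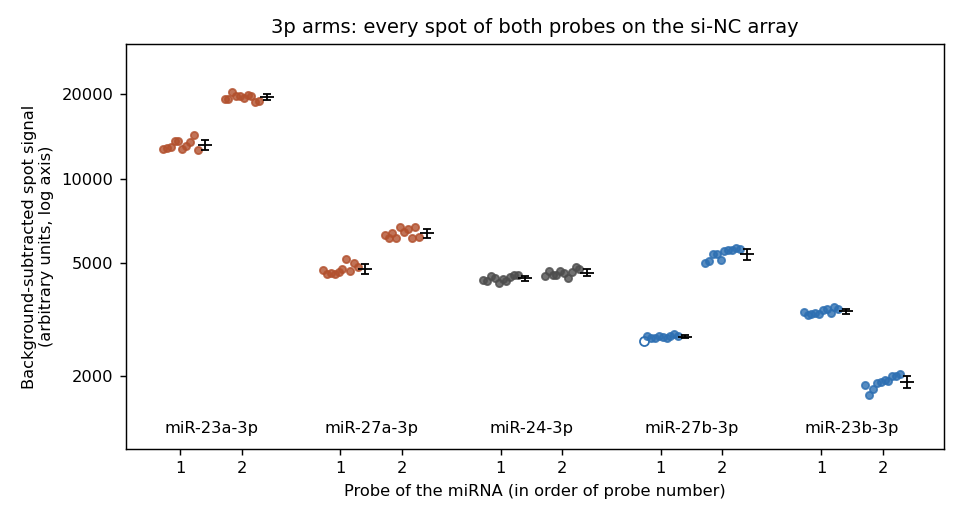
Background-subtracted signal of every spot (points, arbitrary units, log axis) for both probes of each 3p arm, with the mean and SD over spots beside them (black); brown is the chromosome 19 cluster, blue the chromosome 9 cluster, grey miR-24-3p of both, and the open point an outlier spot left out of the mean. The second miR-23a-3p probe lies highest (mean 19422) and the second miR-23b-3p probe lowest (mean 1897).

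The probes of the relative miR-23c show how little they read of miR-23a-3p and miR-23b-3p, and not the reverse. These probes, for a sequence that differs from miR-23a-3p and from miR-23b-3p at 2 positions each, gave means of 7.62 ± 2.20 (SD, 10 spots) and 6.51 ± 1.77 (SD, 9 spots). The software called miR-23c not detected, with probe signals 2.79 and 2.41 times their error where 3 times is needed. These means lay above the median of 1000 negative control spots, 0.0894, and below their 99th percentile, 16.1. How much of the signal on the miR-23a-3p and miR-23b-3p probes came from the other paralogue was not tested.

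The 5p arms ran from well above background to not detected. The brightest, miR-23a-5p, reached a total gene signal of 35.5 ± 1.89, with all of its 20 spots well above background. Its 4 probes had means of 78.6 ± 6.04, 80.3 ± 8.22, 94.9 ± 8.44 and 135 ± 6.88 (SD, 5 spots each), in the order of their probe numbers. For miR-27b-5p, at 17.0 ± 1.11, the means were 9.41 ± 1.57, 32.8 ± 3.66, 57.0 ± 3.38 and 86.6 ± 10.8, and the first of these probes lay below the 99th percentile of negative control spots.

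For miR-27a-5p the means of the 4 probes were -0.868 ± 0.938, 7.99 ± 1.27, 19.8 ± 2.07 and 34.3 ± 4.43 (SD, 5 spots each). Its first probe thus gave no signal above background while all 5 spots of its last ran from 30.2 to 41.9. Only probes past 3 times their error enter the total gene signal, and the second probe, at 2.92 times, was left out. The total was 4.95 ± 0.497, and it would have been 5.68 with that probe. The probes of miR-24-1-5p gave spots from 9.11 to 16.01 (median 11.1, 10 spots, 2 of them well above background) and from 26.4 to 36.2 (median 29.9, 10 spots, all of them well above background), with a total of 7.69 ± 0.903.

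The undetected arm, miR-24-2-5p, was at background on all 4 of its probes, with means of -1.66 ± 1.61, -1.92 ± 0.882, -1.43 ± 1.79 and 1.104 ± 1.66 (SD, 4 or 5 spots). A single spot of its first probe read 83.4 and was marked as an outlier by the software, and the other 4 spots of that probe were all below 0. Thus the 5p arms of MIR24-1 and MIR24-2, alike over their first 15 bases, fell on either side of the detection limit, while the 3p arm they share was bright. The remaining arm, miR-23b-5p, was called detected at 5.24 ± 0.555, with probe means of 8.56 ± 5.44, 11.4 ± 3.06, 17.4 ± 3.97 and 20.0 ± 2.56, and its dimmest probe, at 3.07 times its error, lay just past the limit.

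In miR-23a-5p, miR-27a-5p and miR-27b-5p the probe means rose in the order of probe number, a pattern noticed in the values. All 3 detected members with 4 consecutively numbered probes rose in this way, and so did 72 of 121 detected miRNAs with such probes (59.5%). Of the 121, 6 fell in that order. Among undetected miRNAs with such probes 15 of 131 rose. The rise was therefore common on this array. The probe sequences are not given in the sources used here, and what the numbering stands for was not tested.

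**Figure D3:**
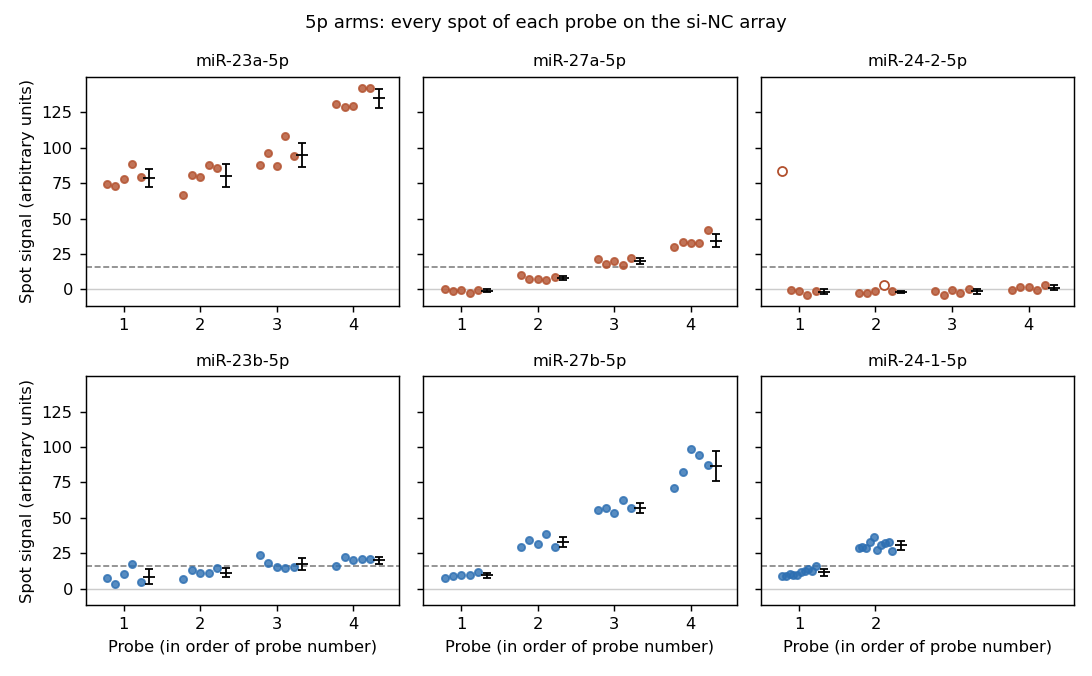
Signal of every spot (points, arbitrary units) for each probe of the 6 5p arms, by probe number, with the mean and SD over spots (black), the 99th percentile of negative control spots (dashed, 16.1) and 0 (solid); open points are outlier spots left out of the mean. Probe means climb from the first to the last probe in miR-23a-5p, miR-27a-5p, miR-27b-5p and miR-23b-5p, and all kept spots of miR-24-2-5p lie near 0.

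How far the probes of a member agreed was asked next, taking only probes in which 50% or more of the spots were well above background. For 8 members with 2 or more such probes, the median log2 difference between the brightest and the dimmest was 0.79, where that over 800 detected miRNAs was 0.35. This measure tends to grow with the number of probes, which was 4 for miR-23a-5p and 3 for miR-27b-5p. Of the 800, 682 had 2 such probes, with a median of 0.32. The difference was 0.07 ± 0.02 (SE from replicate spots) for miR-24-3p, 0.42 ± 0.03 for miR-27a-3p, 0.56 ± 0.02 for miR-23a-3p, 0.83 ± 0.03 for miR-23b-3p and 0.97 ± 0.02 for miR-27b-3p. Among the 5p arms it was 0.78 ± 0.06 for miR-23a-5p, 0.79 ± 0.11 for miR-27a-5p and 1.40 ± 0.11 for miR-27b-5p. One member of the 8 reached 1 on this scale, miR-27b-5p, and 19.6% of the 800 did. The filter leaves out dim probes of these arms. Taking all probes with a mean above 0 still left out the first miR-27a-5p probe, at -0.868. In that setting the difference was 2.10 for miR-27a-5p and 3.20 for miR-27b-5p. With normexp background correction and an offset of 50, which draws dim signals together, it was 0.23 and 0.72, below the 0.96 of miR-27b-3p. The probes of miR-24-3p gave the closest readings of a member in each of these settings, and which member had the widest depended on the setting.

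The precision of these readings was taken from replicate spots. For the 10 probes of the 3p arms the coefficient of variation (CV) ran from 0.972% to 5.05%, with a median of 3.30%. For the 10 probes of 5p arms that passed the same filter it ran from 5.10% to 12.9%, with a median of 10.1%. Over all probes the median CV was 3.76% for 208 with a mean signal of 1000 or more and 10.99% for 1337 with a mean of 10 to 150. The medians of the 3p and 5p probes thus lay slightly below those of all probes of like brightness, and the 5p arms had the larger CV over spots.

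Position on the array moved with the 3p signals slightly. In 9 of 10 3p probes the mean was higher over the spots in rows 193 to 384 of the array than over those in rows 1 to 192, and 177 of 198 probes with a mean of 1000 or more showed the same direction. The log2 difference between these blocks of rows ran from -0.020 to 0.11 in the 3p probes, with a median of 0.030, beside a median of 0.042 for the 198. It was largest for the second probe of miR-23b-3p, whose 5 spots in each block averaged 1827 and 1967.

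**Figure D4:**
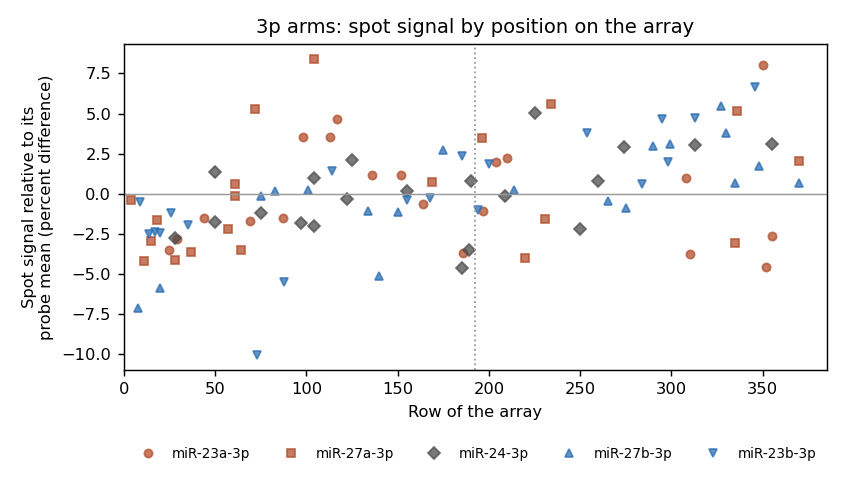
Signal of each spot of the 3p arms as a percent difference from the mean of its probe, against the row of the array, with a dotted line between rows 192 and 193; symbols mark the miRNA, colours the cluster (brown chromosome 19, blue chromosome 9, grey both). Spots in the first rows lie mostly below 0, and the spots of miR-27b-3p and miR-23b-3p lie mostly above it in the last rows.

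On the log2 scale against the 75th percentile of spots of detected miRNAs, a signal of 143, the 3p arms lay at 6.81 ± 0.05 for miR-23a-3p, 5.27 ± 0.06 for miR-27a-3p, 4.99 ± 0.04 for miR-24-3p, 4.78 ± 0.05 for miR-27b-3p and 4.15 ± 0.06 for miR-23b-3p (SD over replicate spots). The 5p arms lay under this percentile, at -0.59 ± 0.12 for miR-23a-5p, -2.03 ± 0.18 for miR-27b-5p, -2.94 ± 0.22 for miR-24-1-5p and -3.03 ± 0.18 for miR-27a-5p, where the last is over the 15 of 20 spots above 0. Each of these SDs was taken about the means of the probes, so it leaves out the spread between probes. Between the probes of miR-27b-3p, for example, that spread was 0.97. Against the 75th percentile over all miRNA spots, a signal of 26.3, miR-23a-5p lay above it at 1.85 and miR-27b-5p at 0.41, so the side on which these 2 arms fell depended on the reference. The median was 4.99 over the 3p arms and -2.49 over these 4 5p arms. No such value can be given for miR-24-2-5p, since most of its spots were at or below 0.

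The table of processed values that the authors deposited held all 10 members. The deposited log2 values were 12.09 for miR-23a-3p, 10.79 for miR-27a-3p, 10.36 for miR-24-3p, 10.21 for miR-27b-3p and 9.79 for miR-23b-3p, and the order of these 5 was that of the scanner signals. They lay below the log2 of the total gene signal by amounts from -0.12 (miR-23b-3p) to -0.46 (miR-23a-3p), beside a median of -0.26 over the 87 miRNAs with a signal of 500 or more. The values of miR-23a-5p, miR-27b-5p and miR-24-1-5p were 5.23, 4.16 and 2.97, within 0.08 of the scanner values. The signal of miR-27a-5p lay under 5, the floor of the table, and it was 1 of 283 miRNAs with the same deposited value, 2.3236. The undetected miR-24-2-5p was at the lowest value of the table, 2.3219, with 1416 miRNAs in all. In that table the detected miR-27a-5p and the undetected miR-24-2-5p are thus almost equal.

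**Figure D5:**
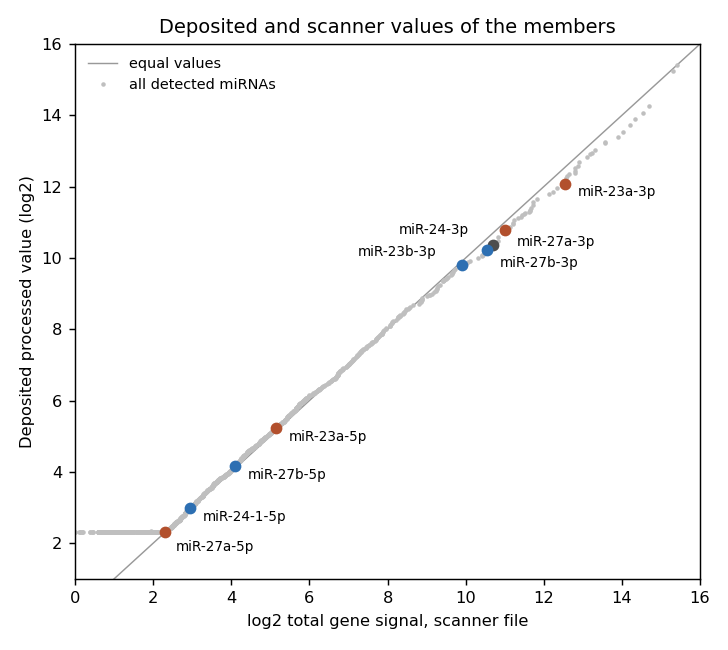
Deposited processed value (log2) against log2 total gene signal of the scanner file for the 1133 detected miRNAs (grey points, those with a log2 signal below 0 not shown) and the 9 detected members (coloured points, by cluster as above), with a line of equal values. The 3p arms lie below the line, and miR-27a-5p lies at the end of the flat stretch that the floor makes.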

How the data were processed

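Total RNA of 1 si-NC sample was hybridised to a single-colour Agilent miRNA array. Per the labels, RNA was tagged with Cyanine 3-pCp; the methods describe cDNA labelling, and the values do not settle which. Feature Extraction 11.0.1.1 gave the deposited spot intensity, with background subtracted and no scaling between arrays, its flags, and total gene signals. Each total was 0.0183 times mean signal times number of spots, summed over the probes past 3 times their error. The authors deposited a log2 table, quantile normalized in GeneSpring, whose floor at 5 was read from its values.

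The 4.51% of spots with outlier flags were left out, and log2 levels were means over spots above 0. A probe needed 50% of its spots well above background for CVs and probe differences. Alternatives were other detection rules, the percentile over all spots, outliers kept, no filter beyond a probe mean above 0, and total gene signals. Further ones were deposited values and removal of 16 position blocks. In addition, limma normexp (offset 50) was run on the median spot signal in place of the planned mean signal. Python 3.11.15, numpy 2.4.6, pandas 2.3.3, matplotlib 3.10.9, R 4.3.3 and limma 3.58.1 were used. The spot statistics were tested on simulated data in which every spot was well above background. Dim probes and spots below 0 were not covered by that test.

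The rule on names covered the 10 members, miR-23b-5p, the miR-3074 arms, miRNAs sharing a seed with a member or differing from one at 4 or fewer positions, and listed tissue markers. The clusters were picked for description, and the members and marker lists chosen, with earlier results of these data known, although the rule for members used names alone. The single array limits the precision. Sequences were matched by name in RefSeq (GRCh38.p14) for 2248 of 2549 miRNAs.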

Additional observations from a re-analysis of the deposited data

How the results depend on the processing

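Over the results, 92 alternative values were computed, of which 47 stayed within the spread of replicate spots (counts within 1.5 times), 43 moved and 2 changed sign. Those 2 were miR-23a-5p, from -0.59 to 1.85, and miR-27b-5p, from -2.03 to 0.41, both against the percentile over all spots. Some settings could move the values little. The rule of 3 times the error called 1133 miRNAs, as the software flag did, and only 3 of the 200 member spots were outliers. The 9 detected members became 6 when 50% of the spots of each probe had to be well above background, 8 by the negative control spots, and 9 by the other rules. The median log2 signal of the 3p arms, 4.99, moved to 7.43 with the percentile over all spots, 4.53 with normexp and 4.53 with deposited values. That of the 5p arms, -2.49, moved to -0.046, -1.18 and -2.26 in these settings, to -2.19 with total gene signals, and to -0.59 over miR-23a-5p alone, the arm with every spot well above background (chosen after seeing the data). With all spots the reference signal itself fell from 143 to 26.3. Deposited values and total gene signals were each set against a reference on their own scale, so their shifts also hold a change of reference. The median probe difference, 0.79, moved to 0.52 with normexp and to 0.83 with no filter beyond a mean above 0. That setting gave 2.10 for miR-27a-5p and 3.20 for miR-27b-5p. It also took in miR-24-1-5p, whose probe means were 30.5 and 11.5. The median CV of member probes, 5.08%, moved to 6.81% in the same setting, which adds dim probes. The cause was not tested for the remaining shifts. Among the detected 5p arms the software errors ran from 5.32% of the signal in miR-23a-5p to 11.8% in miR-24-1-5p. In the 3p arms they ran from 7.08% to 7.44%.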

Other observations

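Opposite MIR24-1, on the minus strand of chromosome 9, lies MIR3074 (chr9:95086014-95086094 on GRCh38.p14). Its 5p arm is complementary to miR-24-3p over 20 bases in a row, and its 3p arm to miR-24-1-5p over 19. The array called miR-3074-5p detected at a total gene signal of 5.56 ± 0.798 (error from the scanner software), from probes with means of 20.6 ± 4.15 (SD, 9 spots) and 9.76 ± 2.50 (SD, 10 spots). It called miR-3074-3p not detected, with probe means of 2.77 ± 2.29 and 2.07 ± 1.82 (SD, 10 spots each). Both strands of this locus thus had a detected mature miRNA, and the signal of the antisense one lay near the detection limit.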
